A study of Macaca fascicularis with 6 samples.

Results

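Chondroitin sulfate is the sulfated sugar chain that loads aggrecan with negative charge and so holds water in cartilage. The expression of 10 genes that build, sulfate or supply this chain was read in single cells of the cynomolgus monkey by TAS-Seq, which sequences the whole transcriptome of cells captured with barcoded beads. They were chosen by name, with earlier results of these data known. The genes were *XYLT1*, *CSGALNACT1*, *CHSY1*, *CHPF*, *CHST3*, *CHST11*, *UGDH*, *SLC35D1*, *PAPSS2* and *SLC26A2*. All 10 were among the 13950 genes of one matrix and the 14020 genes of another. A chain begins with a xylose placed on a serine of the core protein, is extended by a short linker, and is then polymerized in the Golgi from alternating glucuronic acid and N-acetylgalactosamine. Sulfotransferases add sulfate from an activated donor made in the cytosol, so that chain synthesis depends on sugar nucleotides, on sulfate uptake and on transporters into the endoplasmic reticulum and Golgi. Inherited defects of sulfate uptake, sulfate activation or chain synthesis are known as causes of skeletal dysplasia.

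Cells came from 5 samples. Undifferentiated cynomolgus iPS cells (cyiPSC) came from a line that carries an EGFP reporter gene, and cartilage organoids were grown from them with BMP2, TGF-β1 and GDF5 (pre-transplant cyiPS-Cart). Organoids of that line were put as allogeneic grafts into chondral defects of the knee in monkeys of 3 to 4 years and were taken out after 4 months (post-transplant cyiPS-Cart). The native samples were articular cartilage that was intact (cyAC) and fibrous tissue that had filled defects left empty (cyFT), both of wild type monkeys of 3 to 4 years and taken 4 months after surgery. The label of the post-transplant library also names the wild type and does not say whether it means the host or the grafted cells. All organoid cells descend from 1 cell line. By the methods 3 monkeys of the transplanted and of the empty group were killed at each time point and 2 sites of each monkey were combined for sequencing, and the cell names do not part cells by animal.

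The samples were read in 3 libraries, of which one held cyiPSC and pre-transplant cyiPS-Cart, one held post-transplant cyiPS-Cart alone, and one held cyAC and cyFT. Each condition was therefore 1 sample, no test was run, and library and condition cannot be told apart except between cyiPSC and pre-transplant cyiPS-Cart and between cyAC and cyFT. The first matrix held 2500 cyiPSC and 3527 pre-transplant cells, with median depths of 143075 and 59249 reads per cell. The second matrix held 320 cells each of organoids before and after transplantation, of cyAC and of cyFT, in that order with median depths of 58413.5, 80335.5, 29699 and 27499.5 reads. Of its 320 pre-transplant cells, 300 were also in the first matrix with identical counts. No cell barcode was shared between cyiPSC and pre-transplant cells of the first matrix or between cyAC and cyFT. Barcodes were not compared across libraries. In the 4 cartilage or fibrous samples, all 7 chondrocyte markers had reads above 10 CPM. The summed level of 5 leukocyte markers was 417 CPM in cyFT (*CD3E* at 0, 4 of 5 above 10 CPM), against 25.2 CPM in cyAC, 4.27 in pre-transplant cyiPS-Cart (*PTPRC* at 0) and 4.56 in post-transplant cyiPS-Cart, and their part in any result was not tested. Levels are given as CPM, the reads of a gene summed over all cells of a sample per 1000000 reads of that sample. The intervals in parentheses are exact 95% intervals for the number of reads or cells, which cover counting error only and not the spread between animals or cultures. Fewer cells with a gene and less RNA of it per cell cannot be told apart in a sum, so shares of cells are given as well. No cell type that should lack these genes was present from which reads of free RNA could be gauged.

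The 10 genes stood higher in the organoids than in the cells they were made from, and no gene of the list stood lower. A gene was counted as past 2-fold when the log2 ratio of CPM + 1 was at least 1 in size, among genes with a mean of at least 10 CPM over the samples of the matrix. Of the 10 members, 9 passed that filter, and *CHST3* did not. Between pre-transplant cyiPS-Cart and cyiPSC, which shared a library, 8 of the 9 were past 2-fold higher and 0 were past 2-fold lower, while 15.7% of the 7973 genes tested were past 2-fold higher and 36.4% were past 2-fold lower. The median log2 ratio of the 9 was 2.16, and that of all genes was -0.59.

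*PAPSS2*, which encodes the synthase of the activated sulfate donor known for its role in cartilage, was at 14.5 CPM in cyiPSC and at 835 CPM in pre-transplant cyiPS-Cart. The ratio was 57.5 (56.0 to 59.0), above 99.2% of all genes. Reads of *PAPSS2* were in 18.96% of cyiPSC and in 93.3% of pre-transplant cells. After cells were thinned to 30967 reads each, so that depth was equal, and 60 of 2500 cyiPSC and 353 of 3527 pre-transplant cells that were shallower were left out, these shares were 15.5% and 95.2%. In that library the smallest count of *PAPSS2* above 0 was 7 reads, where it was 1 read for the other 9 genes. The authors' processing set counts taken as background to 0, and whether it did so for *PAPSS2* was not tested.

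The genes of chain start and elongation followed the same direction. *XYLT1*, a xylosyltransferase that starts the chain on the core protein, was at 14.2 CPM in cyiPSC and 203 CPM in the organoids, 14.3-fold higher (13.9 to 14.7). *CSGALNACT1*, which adds the first N-acetylgalactosamine and so commits the linker to chondroitin, was at 0.679 CPM and 28.4 CPM, a ratio of 41.9 (37.2 to 47.3) on a base of 282 reads in cyiPSC. *CHSY1*, a chondroitin synthase, was at 6.80 and 33.6 CPM, and *CHPF*, the polymerizing factor that works with it, was at 26.3 and 121 CPM. Both were more than 4-fold higher, by 4.94 (4.73 to 5.16) and 4.61 (4.51 to 4.71).

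Of the sulfotransferases, *CHST11*, which sulfates carbon 4 of N-acetylgalactosamine, was at 22.2 CPM in cyiPSC and 76.3 CPM in the organoids (3.44-fold, 3.35 to 3.53). *CHST3*, which sulfates carbon 6, was at 0.176 CPM and 4.44 CPM, and the lower value rested on 73 reads. Its reads were in 2.20% of cyiPSC and 8.90% of organoid cells. *CHST3* was thus sparse in every sample and is given below as levels with wide intervals.

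The supply genes differed in how far they stood apart. *SLC26A2*, the sulfate transporter of the cell surface, was at 3.42 and 32.0 CPM, 9.37-fold higher in the organoids (8.86 to 9.93). *SLC35D1*, which carries UDP-glucuronic acid and UDP-N-acetylgalactosamine out of the cytosol, was at 27.8 and 68.1 CPM (2.45-fold, 2.39 to 2.51). *UGDH*, the enzyme that oxidizes UDP-glucose to UDP-glucuronic acid, was already at 184 CPM in cyiPSC and was at 269 CPM in the organoids. Its ratio of 1.46 (1.45 to 1.48) was the smallest of the list and was short of 2-fold, and its share of cells was lower in the organoids, at 87.8% against 97.6%. With edgeR's TMM scaling, which moved the median log2 ratio of all genes by 0.65, the log2 ratio of *UGDH* went from 0.55 to 1.21 and was past 2-fold. Under that scaling 24.7% of all genes were past 2-fold higher and 18.4% past 2-fold lower, and 9 of the 9 members that passed the filter were past 2-fold higher.

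**Figure D1:**
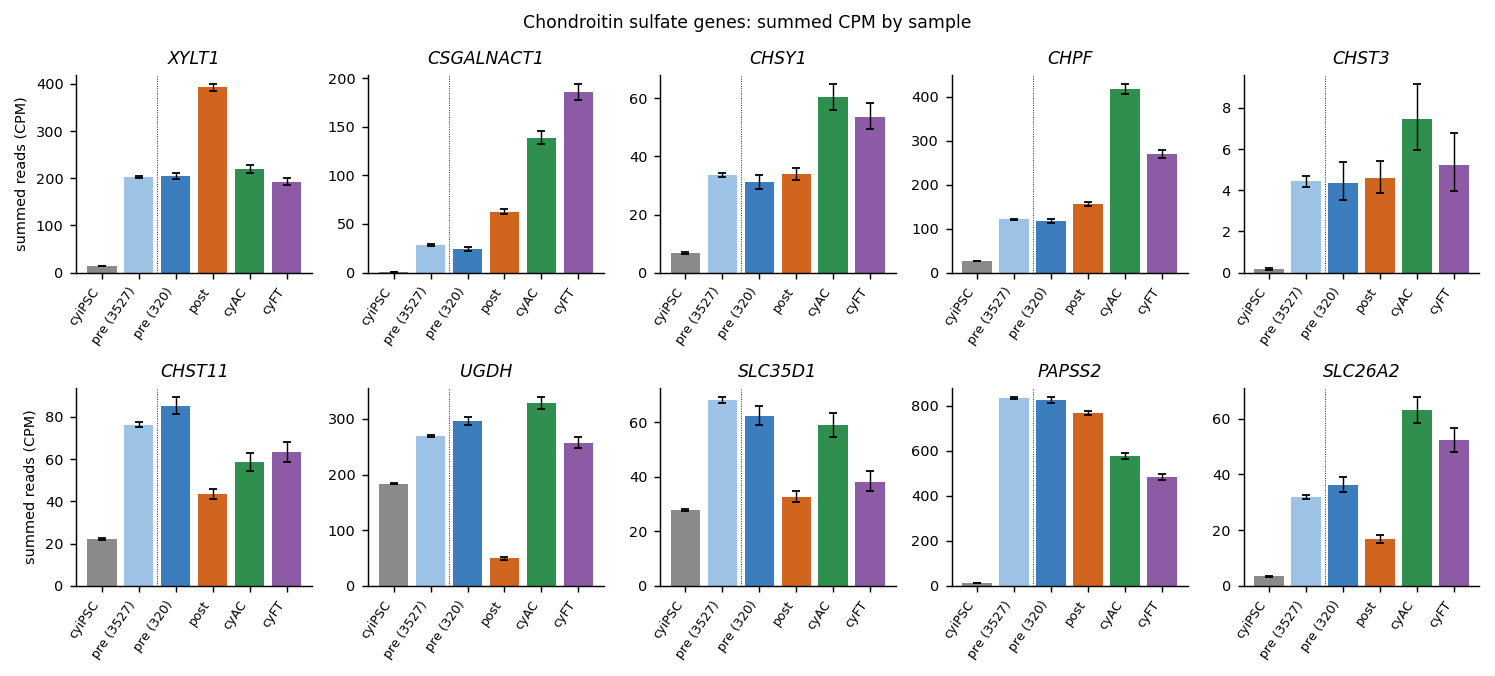
Summed level of each gene in CPM (linear axes from 0, own scale per gene) by sample, with exact 95% counting intervals as bars. The dotted line parts the matrix of cyiPSC and 3527 pre-transplant cells from the matrix of 320 cells per sample. *UGDH* is at 49.8 CPM in post-transplant cyiPS-Cart and between 257 and 328 CPM in the other 3 samples of its matrix.

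Among the 4 tissue samples, *UGDH* gave the largest difference between organoids before and after transplantation. It was at 296 CPM (289 to 304) in pre-transplant cyiPS-Cart, 49.8 CPM (47.3 to 52.4) in post-transplant cyiPS-Cart, 328 CPM (318 to 339) in cyAC and 257 CPM (248 to 267) in cyFT. The post-transplant sample stood apart from the other 3, whose levels lay within a factor of 1.28. It was 5.95-fold lower than the pre-transplant sample (5.62 to 6.30), 6.60-fold lower than cyAC (6.21 to 7.01) and 5.17-fold lower than cyFT (4.85 to 5.51). In each of these comparisons the log2 ratio of *UGDH*, between -2.35 and -2.70, was lower than that of all but 1.55% to 3.47% of genes.

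The lower sum of *UGDH* came with fewer cells that held a read. The share was 88.4% in pre-transplant cyiPS-Cart, 43.1% in post-transplant cyiPS-Cart, 74.1% in cyAC and 74.4% in cyFT, although post-transplant cells were the deepest. After thinning to 12191 reads per cell, which left 319, 320, 308 and 288 cells deep enough, the shares were 77.1% (72.1 to 81.6), 21.6% (17.2 to 26.5), 64.9% (59.3 to 70.3) and 68.8% (63.1 to 74.1). The median cell had 214 CPM of *UGDH* before transplantation and 0 CPM after it, against 148 CPM in cyAC and 128 CPM in cyFT. Post-transplant cells also differed in makeup, with 29.7% of reads in the 20 highest genes against 18.99% in pre-transplant cells, and with mitochondrial genes at 1.97% of reads against 5.51%. The summed level of 5 fibroblast markers, none of them at 0, was 22777 CPM before and 70658 CPM after transplantation, 8625 CPM in cyAC and 46991 CPM in cyFT. After transplantation 4 of the 5 were above 10 CPM, against 5 of 5 in each other tissue sample. Cells with *COL1A1* and no *COL2A1* reads were 7 of 320 after transplantation and 170 of 320 in cyFT, so the sum does not count fibroblasts. The summed level of 3 cycling markers was 61.0, 9.11, 1.78 and 69.2 CPM in the same order of samples. The log2 ratio of *UGDH* in post- over pre-transplant cyiPS-Cart, -2.55, was -2.37 without the 20 highest genes in the total. In cells with *COL2A1* and no *COL1A1* reads it was -2.56, and it ranged from -2.67 to -2.33 over all alternatives. No alternative left out cycling cells or parted library from condition, and the part of cell makeup was not tested.

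Between post- and pre-transplant cyiPS-Cart, 1 of the 9 members that passed the filter was past 2-fold higher and 2 were past 2-fold lower. The shares among all 7367 genes were 8.27% and 17.3%, or 11.4% and 12.0% with TMM scaling, which moved the median of all genes by 0.21. *CSGALNACT1* was the gene that stood higher and *UGDH* and *SLC26A2* were the genes that stood lower. The 4 member genes of chain start and elongation had ratios above 1, with a median log2 ratio of 0.68, and the 4 supply genes had ratios below 1, with a median of -0.99, beside -0.24 for all genes. The value of *PAPSS2*, -0.10, turned to 0.12 with TMM scaling and 0.08 without the 20 highest genes, and that of *CHSY1*, 0.11, was -0.01 without the 5% deepest cells. The further chain genes *CSGALNACT2* and *CHPF2* were not higher, with log2 ratios of -0.70 and -0.28.

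*SLC26A2* was at 36.3 CPM in pre-transplant cyiPS-Cart, 16.8 CPM in post-transplant cyiPS-Cart, 63.0 CPM in cyAC and 52.2 CPM in cyFT. It was lowest after transplantation, 2.16-fold below the pre-transplant level (1.93 to 2.42) and 3.75-fold below cyAC (3.35 to 4.21). At equal depth its reads were in 20.1%, 8.44%, 25.6% and 18.4% of cells of these samples. The post-transplant level rested on few cells, with 28.5% of its 501 reads in 3 cells. Its log2 ratio against the 320 pre-transplant cells, -1.07, was short of 2-fold against the larger set of 3527 pre-transplant cells (-0.89), with TMM scaling (-0.85), without the 20 highest genes (-0.90), with a pseudocount of 10 (-0.79) and in cells with *COL2A1* and no *COL1A1* reads (-0.90).

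*SLC35D1*, the nucleotide sugar carrier, was at 62.5 CPM in pre-transplant cyiPS-Cart, 32.6 CPM in post-transplant cyiPS-Cart, 58.9 CPM in cyAC and 38.2 CPM in cyFT. The interval of the ratio of cyAC over pre-transplant cells included 1, and post-transplant cells were lowest, at 0.852 times the level in cyFT (0.760 to 0.957). That log2 ratio to cyFT, -0.22, turned to 0.07 with TMM scaling and was -0.79 in cells with *COL2A1* and no *COL1A1* reads. The log2 ratio of post- over pre-transplant cyiPS-Cart, -0.92, was past 2-fold against the larger set of pre-transplant cells (-1.04), by the mean of per-cell CPM (-1.01) and without the 3 highest cells (-1.01). *PAPSS2* had the narrowest range of the supply genes, with 826 CPM in pre-transplant cyiPS-Cart, 769 CPM in post-transplant cyiPS-Cart, 578 CPM in cyAC and 483 CPM in cyFT. It was highest in the organoids and 1.71-fold lower in cyFT, and at equal depth its reads were in 92.5%, 89.4%, 82.1% and 73.3% of cells in the same order. In post-transplant cyiPS-Cart, cyAC and cyFT the smallest count of *PAPSS2* above 0 was 1 read, against 7 in pre-transplant cells, and what this did to the share and the sum was not tested.

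The genes that start and extend the chain had orders of their own. *XYLT1* was at 205 CPM (199 to 212) in pre-transplant cyiPS-Cart, 393 CPM (386 to 400) in post-transplant cyiPS-Cart, 220 CPM (211 to 228) in cyAC and 193 CPM (185 to 201) in cyFT. It was highest after transplantation, and the other 3 samples lay within 1.14-fold of each other, which was the ratio of cyAC over cyFT (1.08 to 1.21). The post-transplant level was 1.91-fold that of pre-transplant cells (1.85 to 1.98), 1.79-fold that of cyAC (1.71 to 1.87) and 2.04-fold that of cyFT (1.94 to 2.13). Its log2 ratio to pre-transplant cells, 0.93, was past 2-fold only where the scaling was changed (1.16 with TMM and 1.12 without the 20 highest genes). The share of cells at equal depth did not move with the sum, at 74.6% (69.5 to 79.3) before and 75.9% (70.9 to 80.5) after transplantation, against 58.4% in cyAC and 50.7% in cyFT.

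*CSGALNACT1* was at 24.5 CPM (22.4 to 26.7) in pre-transplant cyiPS-Cart, 62.8 CPM (60.0 to 65.7) in post-transplant cyiPS-Cart, 139 CPM (132 to 145) in cyAC and 186 CPM (178 to 194) in cyFT. No intervals overlapped, and the tissue samples were above both organoid samples. The post-transplant level was 2.57-fold that before transplantation (2.33 to 2.83) and 2.21-fold below cyAC (2.07 to 2.36). The share of cells at equal depth took the same order, from 15.4% and 22.8% in the organoids to 39.6% in cyAC and 46.5% in cyFT.

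*CHPF* was at 117 CPM in pre-transplant cyiPS-Cart, 156 CPM in post-transplant cyiPS-Cart, 417 CPM in cyAC and 270 CPM in cyFT. Its intervals were apart in every pair, and cyAC was 3.58-fold above pre-transplant (3.41 to 3.76) and 2.67-fold above post-transplant organoids (2.56 to 2.78). *CHSY1*, its partner in chain elongation, was at 31.1, 33.8, 60.4 and 53.8 CPM in the same order of samples. The ratio of post- over pre-transplant organoids was 1.09 (0.983 to 1.20), that of cyAC over cyFT was 1.12 (1.01 to 1.25), and cyAC was 1.94-fold above pre-transplant cells (1.74 to 2.16). That log2 ratio of CPM + 1, 0.93, was past 2-fold with TMM scaling and without the 20 highest genes (1.04 in both). At equal depth the intervals of the share of cells with *CHSY1* overlapped in all 4 samples, with 22.6%, 16.2%, 24.4% and 22.2%.

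*CHST11* was at 85.2 CPM in pre-transplant cyiPS-Cart, 43.4 CPM in post-transplant cyiPS-Cart, 58.5 CPM in cyAC and 63.1 CPM in cyFT. It was highest in cultured organoids and 1.96-fold lower after transplantation (1.83 to 2.11), just short of 2-fold on the log2 scale at -0.96, and past it without mitochondrial genes in the total (-1.01) and without the 3 highest cells (-1.03). In cyAC, 37.1% of its 692 reads were in 3 cells, and without the 3 highest cells of each sample its log2 ratio of cyAC over pre-transplant cells moved from -0.53 to -1.05. Its share of cells at equal depth was 37.9% in pre-transplant cells and between 17.2% and 21.2% in the other 3 samples. *CHST3* was at 4.37 CPM before and 4.59 CPM after transplantation, 7.44 CPM in cyAC and 5.23 CPM in cyFT, on 93, 137, 88 and 58 reads, and the ratio of post- over pre-transplant organoids was 1.05 (0.802 to 1.38). That log2 ratio, 0.06, was -0.64 without the 3 highest cells of each sample and 0.48 in sums of thinned cells. The level in cyAC was 1.42-fold that of cyFT (1.01 to 2.02), 1.70-fold that of pre-transplant (1.26 to 2.31) and 1.62-fold that of post-transplant cyiPS-Cart (1.23 to 2.14). The log2 ratio of post-transplant cyiPS-Cart over cyAC, -0.59, was 0.01 by the mean of per-cell CPM and -1.11 without the 3 highest cells of each sample. In the post-transplant sample 62.0% of the 137 *CHST3* reads were in 3 cells.

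**Figure D2:**
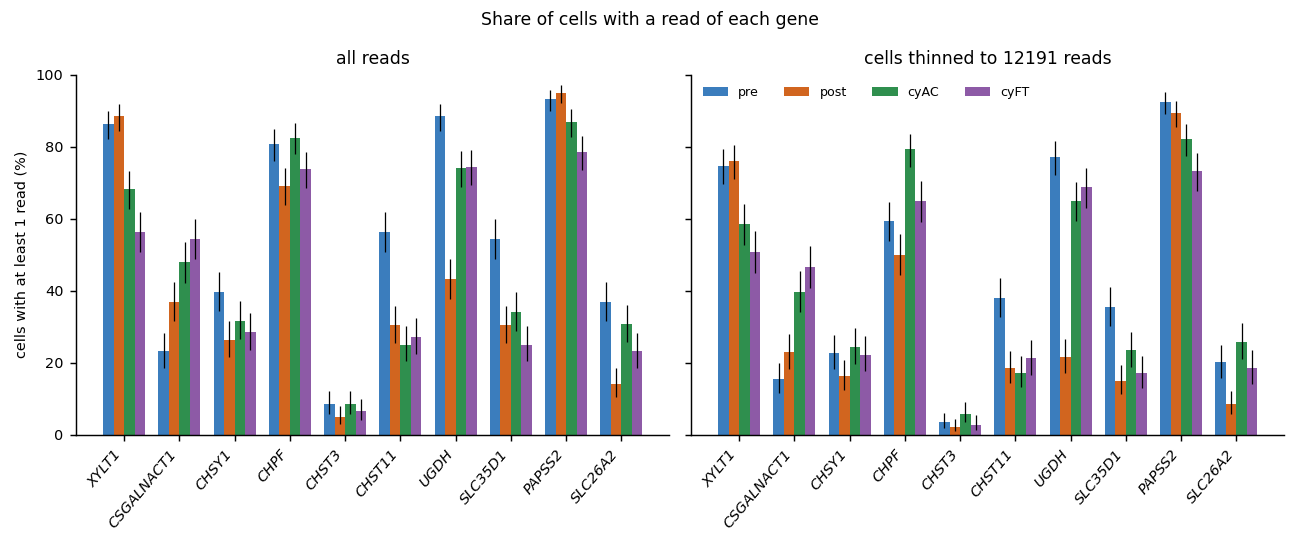
Percent of cells with at least 1 read of each gene in the 4 samples of 320 cells, with all reads (left) and after cells were thinned to 12191 reads each (right), where 319, 320, 308 and 288 cells of pre-transplant and post-transplant cyiPS-Cart, cyAC and cyFT were deep enough, with exact 95% binomial intervals. At equal depth *UGDH* is in 21.6% of post-transplant cells and in 64.9% to 77.1% of cells of the other samples.

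Cultured organoids were then compared with native cartilage. Between cyAC and pre-transplant cyiPS-Cart, 2 of the 9 members, *CSGALNACT1* and *CHPF*, were past 2-fold higher and 0 were past 2-fold lower, beside 11.1% and 13.9% of all genes. *CSGALNACT1* was 5.66-fold higher in cyAC (5.13 to 6.26). *UGDH* and *XYLT1* were within 1.11-fold and 1.07-fold of each other in the pair, and the interval of the *SLC35D1* ratio, 0.860 to 1.04, included 1.

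Between post-transplant cyiPS-Cart and cyAC, 0 members were past 2-fold higher and 4 were past 2-fold lower, beside 9.6% and 15% of all genes. The 4 were *CSGALNACT1*, *CHPF*, *UGDH* and *SLC26A2*. The median log2 ratio of the 9 members was -0.84 and that of all genes was -0.08. *ACAN*, the aggrecan core protein that carries the chains, was at 5559 CPM in post-transplant cyiPS-Cart and 5215 CPM in cyAC, 1.07-fold apart. Set against that gene, *UGDH* had 8.95 reads per 1000 *ACAN* reads after transplantation and 63.0 in cyAC, *CHPF* had 28.1 and 80.0, and *XYLT1* had 70.6 and 42.1.

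Within the library that cyAC and cyFT shared, 0 members were past 2-fold in either direction, where 3.53% of all genes were past 2-fold higher in cyAC and 9.71% past 2-fold lower (4.98% and 6.80% with TMM scaling). The largest ratios were those of *CHPF* (1.55, 1.48 to 1.62) and *SLC35D1* (1.54, 1.36 to 1.74), both higher in cyAC, and *CSGALNACT1* was 1.34-fold higher in cyFT (1.26 to 1.43). Where only cells with *COL2A1* and no *COL1A1* reads were used, *CHPF* was past 2-fold higher in cyAC, with a log2 ratio of 1.12. In those cells the direction turned for *CSGALNACT1*, whose log2 ratio of cyAC over cyFT went from -0.42 to 0.32, and for *SLC26A2* (from 0.27 to -0.43), *PAPSS2* (from 0.26 to -0.15) and *CHSY1* (from 0.16 to -0.12).

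Between post-transplant cyiPS-Cart and cyFT, *XYLT1* was past 2-fold higher and *CSGALNACT1*, *UGDH* and *SLC26A2* were past 2-fold lower, so that 1 and 3 of 9 members were counted beside 6.16% and 19.6% of all genes (11.0% and 13.4% with TMM scaling). The log2 ratio of *XYLT1*, 1.02, was short of 2-fold in thinned cells (0.86), without the 5% deepest cells (0.89), by the mean of per-cell CPM (0.95), and without mitochondrial genes in the total or with a pseudocount of 10 (0.99 in both). *CSGALNACT1* was 2.96-fold lower after transplantation than in cyFT (2.78 to 3.15). In cells with *COL2A1* and no *COL1A1* reads its log2 ratio was -0.70, short of 2-fold, while *CHST11* was past 2-fold lower there with -1.27. The 5 comparisons among these 4 samples share samples with each other and are not independent.

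**Figure D3:**
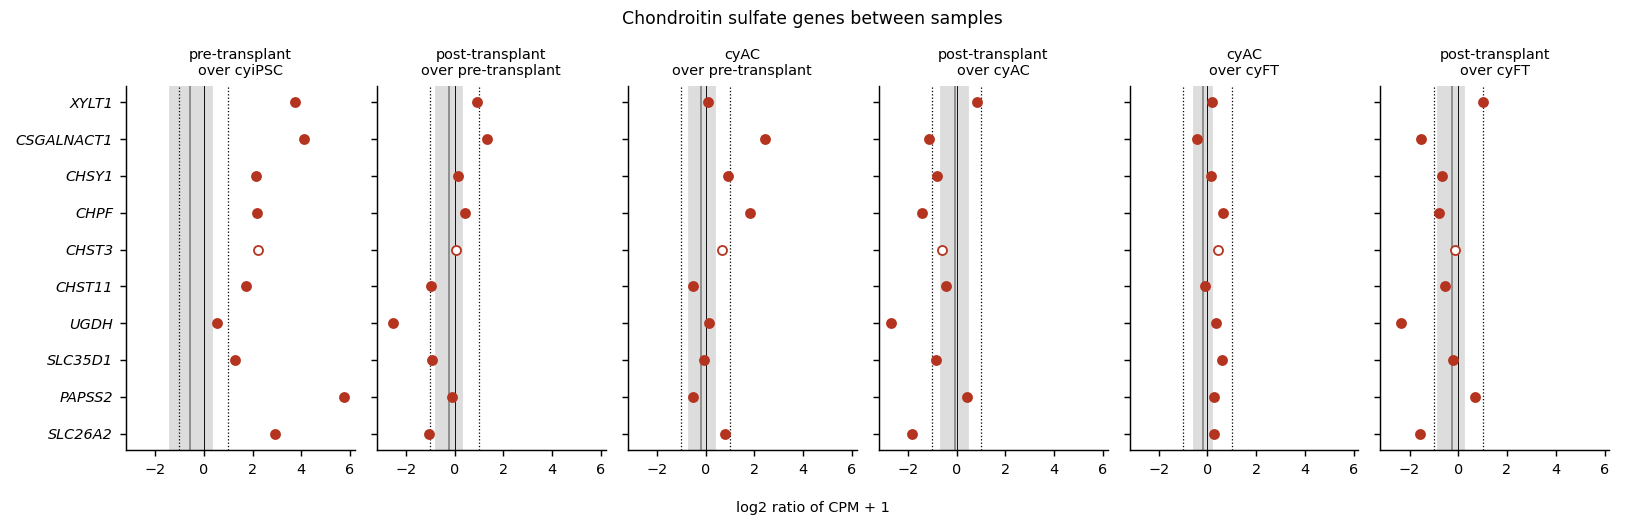
Log2 ratio of CPM + 1 of each gene in 6 comparisons. Filled points passed the filter on low values and open points (*CHST3*) did not. The grey band spans the middle quartiles of all genes tested and its line their median, and dotted lines mark 2-fold. All points lie right of the band for pre-transplant cyiPS-Cart over cyiPSC, and *UGDH* lies leftmost in the 3 comparisons of the post-transplant sample.

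Other genes of the pathway were read from a list of 31, of which 23 were in the matrices and 21 or 20 passed the filter. In pre-transplant cyiPS-Cart over cyiPSC, 15 of 21 were past 2-fold higher and 1 (*CHST7*) was past 2-fold lower, with a median log2 ratio of 1.37, beside 15.7% and 36.4% of all genes and their median of -0.59. Of the further supply genes, 10 of 12 were past 2-fold higher. Among them was *UAP1*, which makes UDP-N-acetylhexosamines, at 81.2 CPM in cyiPSC and 633 CPM in the organoids. The further chain genes *CSGALNACT2* and *CHPF2* were both past 2-fold higher, with log2 ratios of 3.02 and 2.42.

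In post- over pre-transplant cyiPS-Cart, 1 of 20 of these genes was past 2-fold higher and 5 were past 2-fold lower, beside 8.27% and 17.3% of all genes. Lower were *UGP2*, *UAP1*, *BPNT2*, *CHST15* and *DSEL*. *UGP2*, which makes the UDP-glucose that *UGDH* uses, was at 1242 CPM in pre-transplant cyiPS-Cart, 239 CPM in post-transplant cyiPS-Cart, 655 CPM in cyAC and 625 CPM in cyFT. *UAP1* was at 706, 95.9, 457 and 443 CPM in the same order. Both genes were lowest after transplantation, as *UGDH* was, and both were past 2-fold below cyAC and cyFT as well. *PXYLP1*, the phosphatase that acts on the linker xylose, was the gene that stood higher, at 120, 330, 131 and 79.2 CPM.

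*UGP2*, *UAP1* and *BPNT2* were the 3 past 2-fold lower of 12 further supply genes that passed the filter, and the median log2 ratio of these 12 in post- over pre-transplant cyiPS-Cart was -0.38, beside -0.24 for all genes. *SLC35B2*, which carries the activated sulfate donor into the Golgi, was at 179, 204, 101 and 92.5 CPM and was past 2-fold higher after transplantation than in cyAC and cyFT. *CHST15*, which adds a further sulfate to carbon 6 of residues already sulfated at carbon 4, was at 16.0, 5.93, 14.3 and 22.0 CPM and was lowest after transplantation. Between cyAC and cyFT, 1 of 20 genes of the list, *GFPT2*, was past 2-fold lower in cyAC and 0 were past 2-fold higher, beside 9.71% and 3.53% of all genes.

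Genes of related chains were described by their counts, to be read beside the 8.27% of all genes that were past 2-fold higher and the 17.3% that were past 2-fold lower. In post- over pre-transplant cyiPS-Cart, 1 of 8 heparan sulfate genes was past 2-fold higher (*SULF1*) and 3 were lower (*EXT1*, *GLCE* and *HS2ST1*), 1 of 5 keratan sulfate genes was lower (*B4GALT1*), and 1 of 7 degradation genes was higher (*HYAL1*). Of 8 core proteins, 4 were past 2-fold higher (*VCAN*, *BGN*, *DCN* and *COL9A2*) and 2 were lower (*SRGN* and *EPYC*).

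How the genes lay across cells was then read against *ACAN* within each sample. Cells were ranked by *ACAN* CPM, and the 106 cells of highest rank in each sample of 320 (*ACAN*-high cells) were compared with the 106 of lowest rank (*ACAN*-low cells), with *ACAN* left out of the total. The smallest count of *ACAN* above 0 was 17 reads before and 27 reads after transplantation, against 1 read in cyAC and in cyFT. What the authors' setting of background to 0 did to the ranking was not tested. Counts were made among genes of at least 10 CPM in the sample, which *CHST3* did not reach in any of them. Of the other 9 members, 7 stood higher in *ACAN*-high cells of the 320 pre-transplant cells, 6 in post-transplant cyiPS-Cart, 8 in cyAC and 7 in cyFT, while 42.8%, 46.2%, 49.8% and 40.9% of all genes did so. In thinned cells the counts were 5, 7, 8 and 8 of 9, and the share of all genes was not computed there. Pre-transplant cells had more such members than post-transplant cells with all reads and fewer at equal depth, a difference that was not tested. In the 3527 pre-transplant cells, with 1175 cells in each group, 7 of 9 stood higher with all reads, beside 36.7% of all genes, and 0 were past 2-fold higher, beside 0.737%. In thinned cells 7 of 9 stood higher as well. These are cells of 1 sample each and not replicates. In the samples of 320 cells 0, 2, 1 and 4 of the 9 members were past 2-fold higher, beside 2.02%, 4.12%, 4.97% and 7.61% of genes.

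*XYLT1* stood higher with *ACAN* in every tissue sample. From *ACAN*-low to *ACAN*-high cells it went from 129 to 248 CPM in pre-transplant cyiPS-Cart, from 290 to 462 CPM in post-transplant cyiPS-Cart, from 124 to 325 CPM in cyAC and from 107 to 317 CPM in cyFT. The Spearman correlation of its CPM with that of *ACAN* across cells was 0.33, 0.23, 0.28 and 0.29, above 98.8% to 99.7% of the genes compared in each sample, and 0.31 over 3527 pre-transplant cells. In thinned cells the correlations were 0.33, 0.29, 0.33 and 0.30. Cells of a sample share library and depth, and the values are descriptions.

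*PAPSS2* had correlations with *ACAN* of 0.14, 0.25, 0.24 and 0.19, below those of *XYLT1* in 3 samples and above it in post-transplant cyiPS-Cart. In thinned cells they were 0.17, 0.24, 0.26 and 0.28, below those of *XYLT1* in all 4. Its level in *ACAN*-high cells was 769, 955, 755 and 588 CPM, against 676, 600, 388 and 248 CPM in *ACAN*-low cells. *SLC26A2* was at 2.66 CPM in *ACAN*-low cells of the post-transplant sample, on 25 reads, and at 31.0 CPM in its *ACAN*-high cells, on 304 reads. The low and high groups had 31.0 and 42.9 CPM in pre-transplant cyiPS-Cart, 57.7 and 71.7 CPM in cyAC and 23.4 and 57.5 CPM in cyFT, so the gene stood higher in *ACAN*-high cells of all 4 samples. In thinned cells its direction held in pre-transplant, post-transplant and cyFT cells, and its log2 ratio in cyAC was -0.01.

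*UGDH* was not higher with *ACAN* in most samples. It was at 279 and 258 CPM in *ACAN*-low and *ACAN*-high cells of pre-transplant cyiPS-Cart, 60.0 and 53.8 CPM in post-transplant cyiPS-Cart, 281 and 307 CPM in cyAC and 363 and 201 CPM in cyFT. Its correlations with *ACAN* were -0.06, 0.01, 0.03 and -0.18, and in thinned cells 0.04, 0.07, 0.02 and -0.04. In the 3527 pre-transplant cells *UGDH* was at 287 CPM in *ACAN*-low and 221 CPM in *ACAN*-high cells, with a correlation of -0.12 (-0.09 in thinned cells). In both groups of post-transplant cells *UGDH* was below either group of the other 3 samples. *CHPF* was as flat as *UGDH* in 3 samples, with 118 and 120.5 CPM, 162 and 152 CPM, and 408 and 434 CPM, and was at 225 and 357 CPM in cyFT. *CHST11* was lower in *ACAN*-high cells before transplantation (87.3 and 61.3 CPM) and higher in them after it (29.7 and 57.2 CPM), a difference between samples that was not tested.

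**Figure D4:**
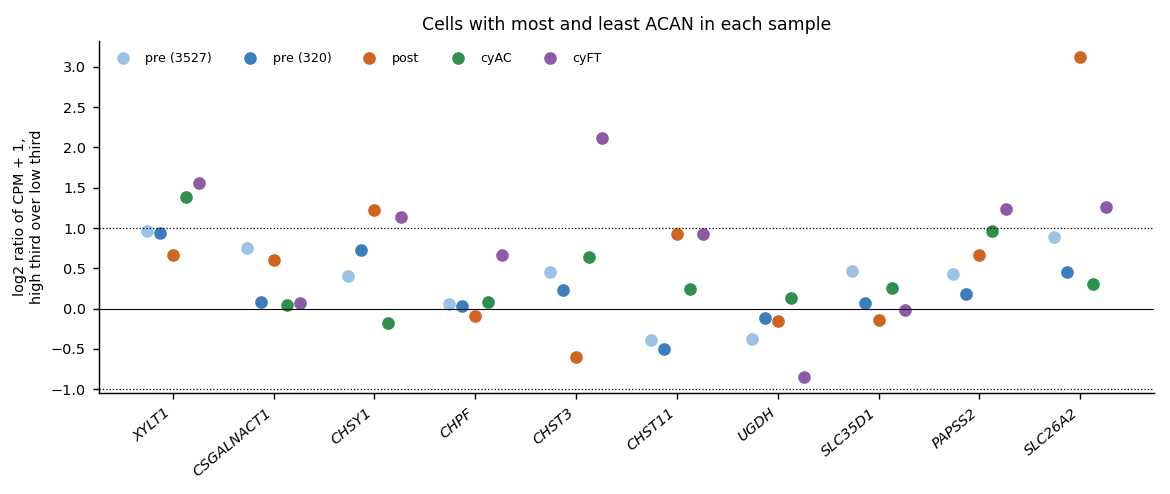
Log2 ratio of CPM + 1 between *ACAN*-high and *ACAN*-low cells of each sample (colors; 1175 cells each for the larger and 106 each for the smaller samples), for 3527 and 320 pre-transplant cells, post-transplant cyiPS-Cart, cyAC and cyFT. Dotted lines mark 2-fold. *XYLT1*, *PAPSS2* and *SLC26A2* are above 0 in all samples shown.

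The *ACAN*-high and *ACAN*-low cells also differed in collagen reads. In pre-transplant cyiPS-Cart *COL1A1* was at 70.0 CPM in the former and 16286 CPM in the latter, whereas in cyFT it was at 27261 and 13514 CPM. The cells of cyFT were therefore parted by collagen, into 84 cells with *COL2A1* and no *COL1A1* reads and 170 cells with *COL1A1* and no *COL2A1* reads. Median depths were 47802.5 and 21830 reads. With both collagens left out of the total, 4 of the 9 members of at least 10 CPM in cyFT were past 2-fold higher in *COL2A1*-only cells and 1 was past 2-fold lower, beside 10.4% and 20.8% of 7564 genes.

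*SLC26A2* was at 98.9 CPM in the *COL2A1*-only cells and 10.5 CPM in the *COL1A1*-only cells, 9.40-fold apart (6.88 to 13.1). *CHST11* was at 120 and 33.2 CPM (3.61-fold, 2.99 to 4.39) and *SLC35D1* at 64.6 and 19.6 CPM (3.29-fold, 2.56 to 4.27). *PAPSS2* was at 752 and 324 CPM (2.32-fold, 2.17 to 2.47). *CHSY1* was also higher in *COL2A1*-only cells but short of 2-fold, at 74.4 and 49.3 CPM (1.51-fold, 1.26 to 1.81).

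*CSGALNACT1* took the other direction, with 116 CPM in *COL2A1*-only and 253 CPM in *COL1A1*-only cells, 2.19-fold lower in the former. By the mean of per-cell CPM its log2 ratio was -0.91, short of 2-fold. Its share of cells was 54.8% and 54.7%, despite the lower depth of the *COL1A1*-only cells. *CHPF* was at 202 and 374 CPM, and *XYLT1* (184 and 191 CPM) and *UGDH* (270 and 304 CPM) were near equal between the classes. In the pre-transplant cells of the first matrix, parted in the same way into 2588 and 254 cells, 4 of the 9 members were past 2-fold higher in *COL2A1*-only cells and 0 were past 2-fold lower, beside 3.42% and 3.84% of all genes. They were *XYLT1* (3.08-fold, 2.91 to 3.26), *CSGALNACT1* (2.81-fold, 2.43 to 3.25), *SLC35D1* (2.29-fold, 2.10 to 2.49) and *SLC26A2* (2.28-fold, 2.01 to 2.58). In the 320 pre-transplant cells, with 242 and 19 cells in the classes, 4 of 9 members were past 2-fold higher and 0 lower, beside 11.1% and 10.4% of all genes. They were *SLC26A2* (6.96-fold, 3.18 to 19.1, on 6 reads in *COL1A1*-only cells), *CHST11* (2.97-fold, 2.07 to 4.42), *XYLT1* (2.35-fold, 1.95 to 2.86) and *SLC35D1* (2.28-fold, 1.62 to 3.34). By the mean of per-cell CPM the log2 ratios of *XYLT1* and *SLC35D1* were 0.80 and 0.91, short of 2-fold. *CHST11* was at 1.10-fold (1.03 to 1.17) in the 3527 cells, and *CSGALNACT1* was at 0.966-fold (0.670 to 1.44) in the 320. In cyAC, with 276 and 16 cells, 5 of 9 were past 2-fold higher and 0 lower, beside 27.3% and 16.8% of all genes. They were *CHST11*, *SLC35D1* and *SLC26A2*, on 2, 7 and 10 reads in *COL1A1*-only cells, and *PAPSS2* and *XYLT1*, on 99 and 33 reads. *XYLT1* was 4.19-fold higher (2.98 to 6.10), while *CSGALNACT1* was at 1.00-fold (0.796 to 1.27). By the mean of per-cell CPM the log2 ratio of *CHSY1* in cyAC went from 0.73 to 1.07, past 2-fold, and that of *CSGALNACT1* from 0.0007 to -0.51. Post-transplant cyiPS-Cart had 7 *COL1A1*-only cells and was not read in this way.

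**Figure D5:**
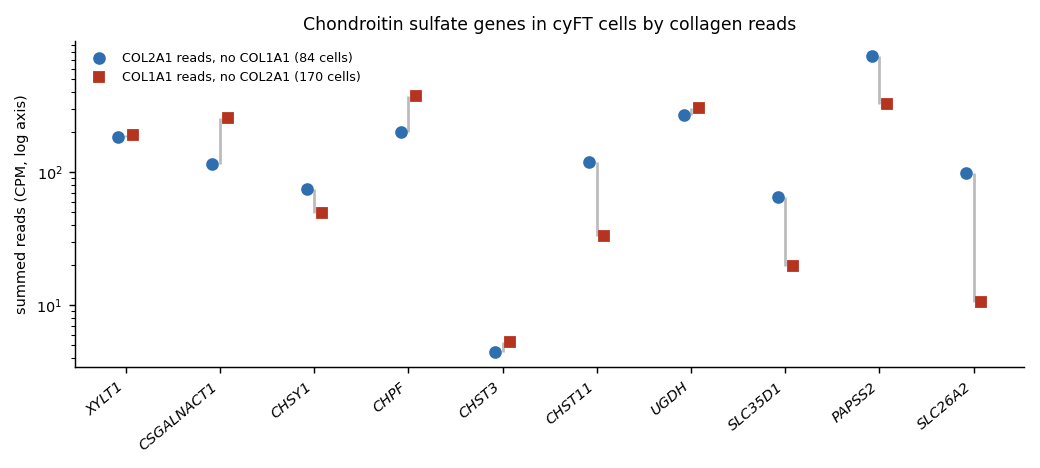
Summed level in CPM (log axis) of each gene in 84 cyFT cells with *COL2A1* and no *COL1A1* reads (circles) and in 170 cyFT cells with *COL1A1* and no *COL2A1* reads (squares). *SLC26A2* is at 98.9 and 10.5 CPM, and *CSGALNACT1* lies on the other side, at 116 and 253 CPM.

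Of the 10 members, 7 had reads in at least 25% of cells of every sample of the second matrix, and for these the genes most alike across cells were sought among 2905 genes, by the mean of the 4 within-sample Spearman correlations of CPM. For *XYLT1* they were *COL9A1* (0.29), *COL11A2* (0.28) and *ACAN* (0.28), and for *PAPSS2* they were *CLEC3A* (0.29), *COL9A1* (0.27) and *PLOD2* (0.26). For *UGDH* they were *NFATC2* (0.22), *ANXA1* (0.21) and *RGCC* (0.20). *CHST11* was most like *PDPN* (0.22), *CNMD* (0.22) and *FAM126B* (0.19), with means over unlike samples, from 0.03 to 0.37 for *PDPN*, from -0.0017 to 0.49 for *CNMD* and from 0.05 to 0.41 for *FAM126B*. For *SLC35D1* the genes were *CNMD* (0.18), *FURIN* (0.16) and *SRXN1* (0.16), for *CHSY1* *PDPN* (0.15), *FDFT1* (0.14) and *ERF* (0.14), and for *CHPF* *MATN2* (0.13), *RGS3* (0.13) and *PNMA1* (0.12). The lowest value in a sample was 0.0032 for *CHPF* with *RGS3* and 0.03 for *CHSY1* with *ERF*. Between members, the mean correlation of *XYLT1* with *PAPSS2* was 0.19 and that of *XYLT1* with *CHPF* was 0.02. After thinning, the median cell held reads of 4 of the 10 genes in pre-transplant cyiPS-Cart, 3 in post-transplant cyiPS-Cart, and 4 in cyAC and cyFT. Cells with reads of at most 2 of them were 8.78%, 29.1%, 12.3% and 19.8% of the samples in that order.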

How the data were processed

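TAS-Seq libraries of 3 pools were read. Per the labels and methods, the authors used Bowtie2 2.4.2 on Ensembl transcripts of *Macaca fascicularis*, cutadapt 3.4 and R 3.6.3, parted pooled samples by hashtag and set counts taken as diffused background to 0. The deposited values are read counts per gene and cell, with no step that counts molecules described. Cells were given to conditions by their name prefixes, through the code the authors supply. The 3 hashtag libraries were not used. Reads were summed per condition, and ratios are log2 of CPM + 1, without a test, since each condition had 1 sample. Intervals are exact Poisson, binomial or conditional ones. Members and lists were chosen with earlier results of these data known. Each gene of the list is reported, with *ACAN*, the related lists (values only for genes past 2-fold), and the 3 genes most alike for members found in at least 25% of cells of every sample. Doublets were not removed. Alternatives were other totals and scalings, per-cell means, leaving out the highest or deepest cells, stricter cells, other pseudocounts and filters, thinning, and the larger set of pre-transplant cells. Ratios, thinning and the split by *ACAN* were tested on simulated data. Python used numpy 2.4.6, pandas 2.3.3 and scipy 1.17.1. TMM factors came from edgeR 4.0.16. Gene symbols were matched to a RefSeq table of another assembly, used for names only (10 of 10 members, 94.9% of all symbols).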

Additional observations from a re-analysis of the deposited data

How the results depend on the processing

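In the 6 comparisons, of 228 recomputed log2 ratios of members that passed the filter and were past 2-fold, 228 kept their sign and 217 were still past 2-fold. In post- over pre-transplant cyiPS-Cart 2 stood higher and 1 lower with TMM factors and without the 20 highest genes, 1 stood lower with a pseudocount of 10 and in cells with *COL2A1* and no *COL1A1* reads, 3 stood lower without mitochondrial genes in the total (with *CHST11*) and by the mean of per-cell CPM (with *SLC35D1*), 4 stood lower without the 3 highest cells of each gene (22.5% of all genes, against 17.3%), and with the larger set of pre-transplant cells *SLC35D1* took the place of *SLC26A2* among the 2 lower genes. In cyAC over pre-transplant cyiPS-Cart 3 stood higher (with *CHSY1*) with TMM factors (12.8% of all genes) and without the 20 highest genes (12.9%). Without the 3 highest cells 1 stood lower (*CHST11*), beside 20.3% of all genes, against 13.9%. In cyAC over cyFT 1 stood higher (*CHPF*) in cells with *COL2A1* and no *COL1A1* reads, where 7.68% of all genes were higher and 6.64% lower (3.53% and 9.71% in all cells) and the median of all genes moved by 0.21. In post-transplant cyiPS-Cart over cyFT *CHST11* took the place of *CSGALNACT1* among the 3 lower genes in those cells (18.0% of all genes lower). With *XYLT1* short of 2-fold, 0 stood higher without mitochondrial genes in the total (5.84% of all genes higher) and by the mean of per-cell CPM (6.26%). The same held without the 5% deepest cells (6.34%), with a pseudocount of 10 (4.00%) and in thinned cells (6.49%). Within cyFT, 0 stood lower in *COL2A1*-only cells by the mean of per-cell CPM, where the log2 ratio of *CSGALNACT1* was -0.91. The share of all genes was not computed by that mean. The alternatives of thinned sums and of *COL2A1*-only cells were chosen after seeing the data. No paired analysis was possible because each condition had 1 sample. Intervals cover counting error of reads, which are not independent molecules, and say nothing about animals or cultures. *CHST3*, with 58 to 137 reads in the 4 samples of 320 cells, had the widest intervals of the list.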
